A study of Rattus norvegicus with 7 samples.

Results

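The 212 gene models described here are those on chromosome 20 of the rat assembly RGSC3.4 that start below 6 Mb, the stretch that holds the rat major histocompatibility complex (MHC, called RT1 in the rat), and that have at least 2 exon entries in the authors' annotation. They were chosen by position and exon number alone, out of 29630 models in all, and the first starts at base 801 and the last at base 5966005. The RNA came from the vomeronasal epithelium of 7 untreated male rats of the inbred LEW/Crl strain, aged 8 weeks, with 1 rat per library, so that p-values measure the spread between rats. All rats formed 1 group and had been flushed of blood with heparin under anaesthesia, so that no treatments, genotypes or ages could be compared. The libraries held 64085829 to 74924005 counts.

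The MHC is a gene-dense region known for antigen presentation. Its class I genes encode the heavy chains that show peptides on the surface of most cells, its class II genes encode the corresponding molecules of specialised antigen-presenting cells, and the class III stretch holds complement and cytokine genes among many genes of general cell function. In rodents the class I genes are duplicated in blocks, olfactory receptor genes lie beside them, and a group of non-classical class I genes, the M10 family, is known to be expressed in vomeronasal neurons that carry type 2 vomeronasal receptors. The LEW strain carries another RT1 haplotype than the Brown Norway rat from which the reference assembly was made, and how that bears on the counts of polymorphic models was not tested. The files give Ensembl identifiers only, and 0 of the 212 could be matched to a symbol, so that models are named by identifier and position and no model is assigned to an MHC class. No sequence of this assembly was used here. The tissue label could be checked only against models that carry a type 1 vomeronasal receptor (V1R) name in the files. There were 114, of which 109 are named as pseudogenes, and together they had 24.1 to 35.7 TMM-scaled CPM (counts scaled to a library total of 1e6) per rat, TMM being a method that sets library sizes by the bulk of models.

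The members were broadly expressed in this tissue. Of all 212 members, 159 were detected, that is, they had at least 10 counts in at least 4 of the 7 rats (75%). Over all models of the annotation 56.3% were detected, but 71.4% of the multi-exon models elsewhere in the genome and 74.4% of the 367 multi-exon models on the rest of chromosome 20 were, so that the members' share lay near that of other multi-exon models. Of the 81 single-exon models in the same 6 Mb, by contrast, 13 were detected (16.05%). Among the 53 members that were not detected, 12 had no count in any rat and 41 had some. The 2-exon members were detected in 8 of 24 cases and members with 10 or more exons in 57 of 62 cases. Detected members also had more exon bases, with a median length of 1463 bases against 939 for the others.

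Levels of different models are given as RPKM, which is CPM divided by the exon length in kilobases. The 159 detected members had a median of 8.43 RPKM with quartiles of 2.07 and 23.2, against 6.29 RPKM (2.04 and 15.0) for all detected models. Over the 81 detected members with whole counts in every rat, a different set of models, the median was 6.05 RPKM. There were 71 members at 10 RPKM or more, 17 at 50 or more and 5 at 100 or more. Together the 212 members took 0.546% ± 0.0380 of all counts (SD, n = 7), from 0.488% in rat 1, the lowest, to 0.613% in rat 7. A few members held most of this: 17 of them made up 50% of the summed CPM.

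The highest level of all members was that of ENSRNOG00000028505 (plus strand, 5083626 to 5087304, 548 exon bases). Its RPKM was 326 in the lowest rat, 363 at the median and 394 in the highest. No other member reached that range in any rat. The next was ENSRNOG00000000490 (minus strand, 5849321 to 5853895), at 132, 139 and 140 RPKM in the lowest, median and highest rat, with a coefficient of variation (CV) of 2.62%. ENSRNOG00000028035 (1945294 to 1947325) had 113, 141 and 154 RPKM and ENSRNOG00000000821 (3060237 to 3064734) had 97.5, 118 and 138. These last 3 models overlapped in their ranges over rats. Within every rat ENSRNOG00000000821 was the lowest of the 3, while the order of ENSRNOG00000000490 and ENSRNOG00000028035 changed between rats and is not resolved.

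ENSRNOG00000000443 (plus strand, 4106165 to 4118041), a model of 33 distinct exons and 4383 exon bases, received more reads than any other member, at 282, 371 and 446 CPM in the lowest, median and highest rat. Per length it stood at 82.1 ± 12.9 RPKM (SD, n = 7), the eighth highest level. ENSRNOG00000030712 (5021800 to 5025330) at 99.5 ± 9.40 RPKM and ENSRNOG00000038999 (5056763 to 5060280) at 64.2 ± 4.89 RPKM (SD, n = 7) lie before ENSRNOG00000028505 on the same strand, the former ending 58.3 kb from its start. ENSRNOG00000029500 (5109809 to 5117749) followed on the minus strand at 63.7 ± 7.13 RPKM (SD, n = 7). Among members whose counts were whole in every rat the highest was ENSRNOG00000032844 (4636344 to 4641280), at 64.5, 78.9 and 86.4 RPKM in the lowest, median and highest rat.

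**Figure D1:**
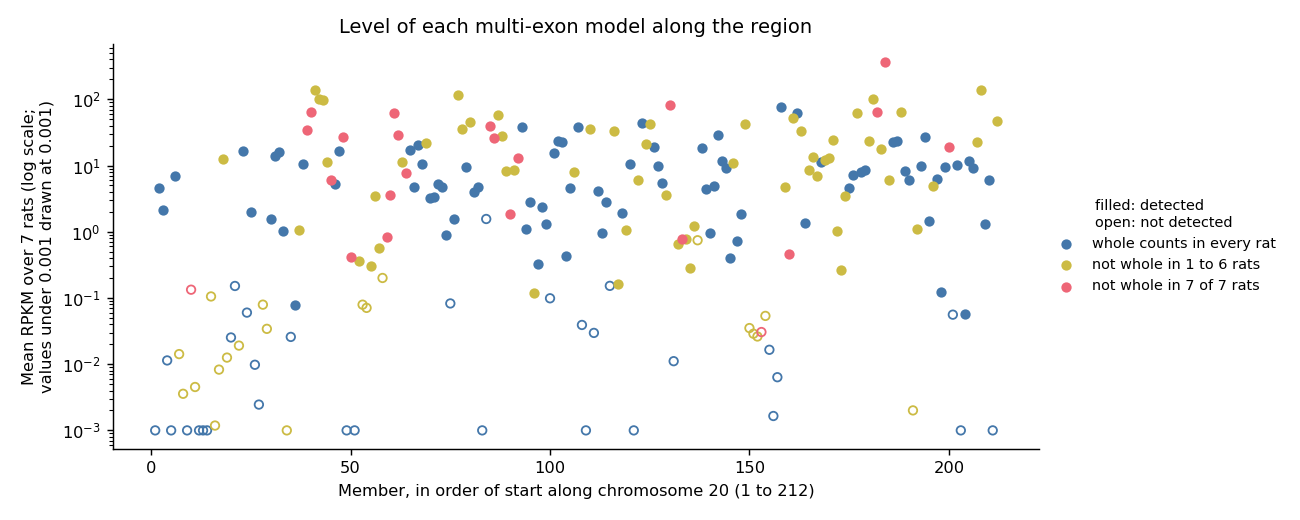
Mean RPKM over 7 rats (log axis) of each of the 212 members, ordered by start along chromosome 20, filled where detected and open where not, and coloured by the number of rats with a count that is not whole; means under 0.001 are drawn at 0.001. Of the 53 open points 25 lie among members 1 to 35 and 8 form a run from member 150 on, and the highest point is ENSRNOG00000028505 at 361 RPKM.

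Along the region the share of members detected and their summed CPM rose and fell, described here in 12 windows of 0.5 Mb by each member's start. The first 3 windows, below 1.5 Mb, held 21 members, of which 4 were detected. In the first, ENSRNOG00000000729 (19528 to 56124) led at 4.53 ± 0.191 RPKM, and in the third ENSRNOG00000000763 (1412553 to 1416692) led at 12.7 ± 0.627 RPKM (SD, n = 7). Between them lies the longest run of undetected neighbours, 11 members from ENSRNOG00000042433 (697146) to ENSRNOG00000040150 (end 1263180). These 2 models had at most 3 and 2.33 counts in any rat. Other members of the run came nearer to detection: ENSRNOG00000000740 had 4.92 to 15.58 counts per rat and ENSRNOG00000042756 2 to 11. ENSRNOG00000031014, inside that run, and ENSRNOG00000000730, the first member of the chromosome, had no count in any rat, nor did ENSRNOG00000042287 at 3257700 to 3259433. A count of 0 allows up to 3 counts, or 0.0400 to 0.0468 CPM per rat and 0.00622 CPM for all 7 rats summed, counting error only.

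From 1.5 Mb on, each window had between 63.6% and 100% of its members detected. The window from 4.0 to 4.5 Mb held the most reads, at 1214 ± 106 summed CPM, or 22.2% of the members' CPM. The next was that from 5.0 to 5.5 Mb with 920.5 ± 55.1 CPM (SD, n = 7 each), which also had the highest summed RPKM. Such sums depend on the number of members, 5 to 35 per window, and on single models. ENSRNOG00000000443 alone had 360 CPM of the window from 4.0 to 4.5 Mb. The median level of detected members there was 5.37 RPKM. Window medians went from 3.34 RPKM in the first window to 15.0 RPKM in that from 1.5 to 2.0 Mb. The window from 2.0 to 2.5 Mb was sparse, with 5 members, all detected, and 57.1 ± 4.96 CPM (SD, n = 7), led by ENSRNOG00000042798 (2132209 to 2134249) at 26.7 ± 1.65 RPKM. From 2.5 to 3.0 Mb, ENSRNOG00000000777 (2815988 to 2818484) led at 61.5 ± 4.82 RPKM, and from 3.5 to 4.0 Mb ENSRNOG00000000841 (3611134 to 3623527) led at 38.5 ± 2.94 RPKM (SD, n = 7 each). The longest run of detected neighbours had 33 members, from ENSRNOG00000032844 to ENSRNOG00000000477 (5121855 to 5127601, 6.05 ± 0.322 RPKM), over less than 0.5 Mb. Of 211 pairs of neighbouring members 162 shared their state, both detected or both not (76.8%). With 75% of the members detected many pairs share a state in any order, and no such share is given here for other models.

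**Figure D2:**
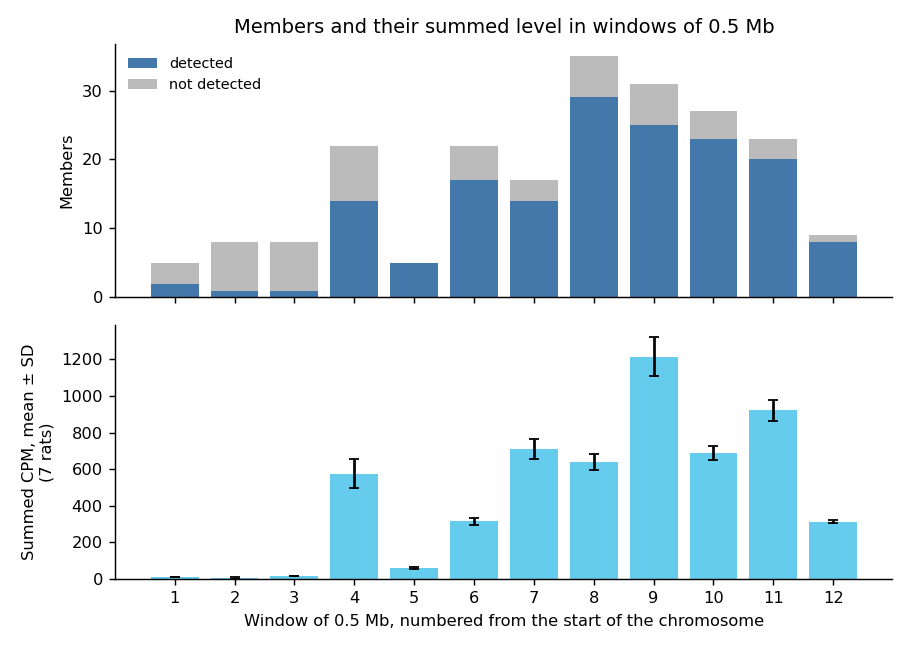
Members per window of 0.5 Mb, split into detected and not detected (top), and the members' summed CPM as mean with SD over 7 rats (bottom), with windows numbered from the start of the chromosome. Windows 1 to 3 hold 4 detected members of 21 and 0.122% to 0.313% of the members' CPM each, and window 9 has the highest sum, 1214 CPM.

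The edge of the region does not follow its levels. The last 2 members before 6 Mb overlap on opposite strands: ENSRNOG00000029402 (5964921 to 5997888) had 1 count in all, in rat 6, and ENSRNOG00000038883 (5966005 to 6033724) had 45.0, 47.2 and 49.3 RPKM in the lowest, median and highest rat. The first 2 multi-exon models beyond the limit, ENSRNOG00000000493 and ENSRNOG00000000495, had 13.0 ± 0.779 and 3.97 ± 0.136 RPKM (SD, n = 7).

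Reads that map to several places were counted as a fraction at each, so that a count that is not whole shows that a model received shared reads. A whole count does not show the opposite, and a count that is not whole can rest on a single shared read. Of the 212 members 100 had such a count in at least 1 rat (47.2%), against 25.4% of all models. Among detected members it was 78 of 159 (49.1%), against 30.8% of all detected models and 23.4% of detected multi-exon models on the rest of chromosome 20. The single-exon models of the same 6 Mb had such counts about as often, in 34 of 81 cases (42.0%) and in 7 of the 13 detected ones (53.8%). These shares were not tested against each other, and the models compared were not matched for their number of counts. The 100 members held 69.4% ± 0.885 of the members' counts (SD, n = 7). For 25 of them the count was not whole in a single rat only, ENSRNOG00000038883 among them. The 69.4% takes in all counts of such members, shared or not, and so is not the share of shared reads. The 22 members with a count that was not whole in 7 of 7 rats held 18.8% ± 0.528 (SD, n = 7).

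The 6 most abundant of those 22 were spread over the region. ENSRNOG00000000443, ENSRNOG00000028505 and ENSRNOG00000038999 have been described above, and ENSRNOG00000000777, with ENSRNOG00000042905 (2829793 to 2837744, 29.2 ± 1.77 RPKM, SD, n = 7) 11.3 kb beyond it, lies in the longest run of neighbours with shared reads. The sixth, ENSRNOG00000031384, belongs to the neighbours described in the next paragraph. That longest run had 13 members between 2750921 and 2922971, 10 of them detected, with levels from 0.0708 to 61.5 RPKM. Another run of 8, from 3410052 to the end of its last member at 3598027, was detected throughout at 1.87 to 57.7 RPKM. ENSRNOG00000029682, one of these 8, is annotated over 343 kb up to 3842473 and so spans members outside the run. A run of 6 from 4998627 to 5097383 held 10.05% of the members' CPM. A run of 5 undetected members from ENSRNOG00000030033 (4339504) to ENSRNOG00000042338 (end 4527759) had shared counts in 4 to 7 rats and 0.0262 to 0.0536 RPKM. These 5 follow directly on ENSRNOG00000030729 (4300724 to 4315876) at 42.0 RPKM. The counts of 20 members were whole or multiples of 1/2 in all rats, those of 11 multiples of 1/3 and of 4 multiples of 1/4, within 0.005. Only 2 pairs of members had equal nonzero counts in every rat, ENSRNOG00000000724 with ENSRNOG00000039396 and ENSRNOG00000021518 with ENSRNOG00000038966, and these rested on 1 count and 0.33 of a count in 1 rat.

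One block of similar models stood out and was chosen after its values had been seen. It has 7 neighbours from 1854092 to 2076950, each with 957 to 1026 exon bases and 5 to 8 distinct exons, all with shared reads and all detected. No other member had both that length and that number of exons, but these ranges were taken from the 7 themselves. Members just longer included ENSRNOG00000033136 (1047 bases, 6 exons), not detected at 0.00979 RPKM, and ENSRNOG00000032596 (1059 bases, 6 exons) at 7.66 RPKM. The 7 were as follows. From the lowest position they were ENSRNOG00000042370 at 33.9 ± 6.52 RPKM, ENSRNOG00000031384 at 64.2 ± 11.8, ENSRNOG00000028035 at 137 ± 17.9, ENSRNOG00000027873 at 100.0 ± 13.4, ENSRNOG00000031065 at 96.9 ± 17.8, ENSRNOG00000028301 at 11.4 ± 1.73 and ENSRNOG00000033362 at 6.08 ± 1.10 (SD, n = 7 each). So 4 of the 12 highest levels of the region lay in this block, which held 8.27% ± 0.853 of the members' counts (SD, n = 7). ENSRNOG00000027873 had a count that was not whole in 1 rat only, and ENSRNOG00000042370, ENSRNOG00000031384 and ENSRNOG00000033362 in all 7.

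All 7 neighbours were lowest in the same pair of rats. Their TMM-scaled summed level was 452 ± 53.1 CPM (SD, n = 7). Rats 1 and 6 had the lowest sums, 379 CPM each, and the other 5 rats had 447 to 513 CPM. In all 7 models rats 1 and 6 were the lowest pair. This was not particular to the block: it held for 26 of the 152 other detected members and for 17.5% of all detected models. ENSRNOG00000000443, for example, had 299 and 307 TMM-scaled CPM in rats 1 and 6 and 351 to 405 in the others, and ENSRNOG00000000821 had 235 and 236 against 260 to 299.8. The CV of single models was 10.5% to 15.97%, with a median of 14.4%, and each model's CV relative to the sum of the other 6 was 4.92% to 8.68%, with a median of 6.71%. No such relative CV is given here for other sets of members, so whether the block's values are unusual was not tested. Shared reads link the models' counts, and their part in these values was not tested.

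**Figure D3:**
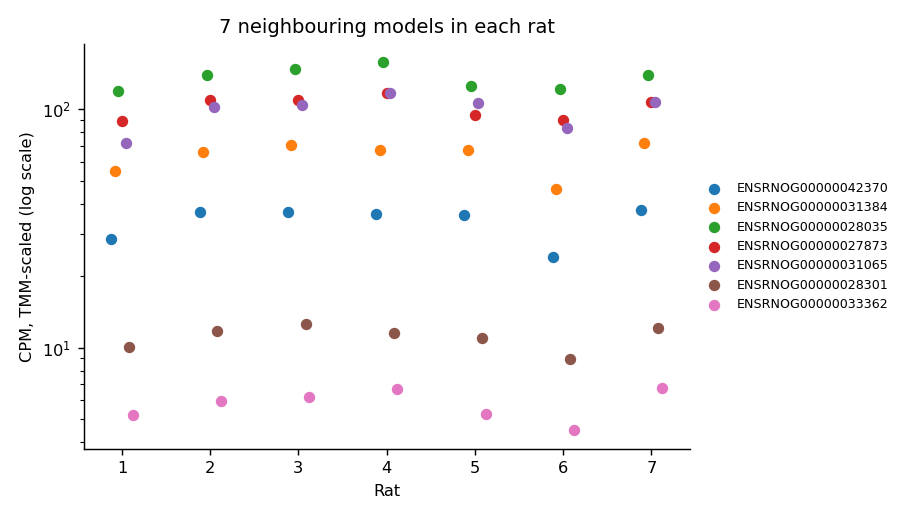
TMM-scaled CPM (log axis) of the 7 neighbouring models in each of the 7 rats, 1 point per model and rat. The points of rats 1 and 6 lie low for the models as a group, with sums of 379 CPM in each, against 447 to 513 CPM in the other rats.

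The summed level of the block was set beside that of the 114 models with a V1R name, and the relation did not pass the correction. Pearson's r of the log2 sums was 0.79 (exact permutation p = 0.0294, adjusted 0.117 over 4 relations, n = 7) and Spearman's rho was 0.68 (exact permutation p = 0.110, adjusted 0.438). Without rats 2 and 6, the pair farthest from the V1R median, r was 0.68 over 5 rats (exact permutation p = 0.208). This call depends on which models are summed, a choice made after results had been seen. Over the first 224 rows of the files, which include 110 models with no V1R name, r was 0.89 (exact permutation p = 0.00754, adjusted 0.0302) and rho was 0.75 (exact permutation p = 0.0663). The block's r with the library total was 0.47, with the mitochondrial share of counts -0.36 and with the share of the 10 most abundant models -0.49 (exact permutation p = 0.281, 0.410 and 0.265, n = 7). In bulk tissue fewer cells of a type and less RNA per cell cannot be told apart.

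Between rats the members as a whole kept their order, with Spearman's rho between 0.978 and 0.997 over the 212 members in the 21 pairs of rats. The biological coefficient of variation (BCV), the spread between rats net of counting noise as edgeR estimates it, had a median of 9.93% over detected members and 10.5% over all detected models. Among the steadiest were ENSRNOG00000000830, ENSRNOG00000000490 and ENSRNOG00000000465, with CVs of CPM of 2.53%, 2.62% and 2.85%, named after their values were seen. Against counting noise alone, 110 of 159 members varied (edgeR goodness of fit, Benjamini-Hochberg adjusted, 70.6% called among all detected models). This share lay near that of all models.

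Few members varied beyond what is usual for their abundance. Against the trend of dispersion over all detected models, edgeR's goodness-of-fit test called 4 of 159 members (2.52%), where 3.69% of all detected models were called, a share near the background. The 4 were ENSRNOG00000000747, ENSRNOG00000000843, ENSRNOG00000000781 and ENSRNOG00000000487, all with whole counts in every rat. DESeq2 marked the first 2 as dispersion outliers (1.4% marked among all detected models). An F test that lets dispersions differ between models called 0 members and 0 models of the table after adjustment (5 members and 836 models at an unadjusted p under 0.05).

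**Figure D4:**
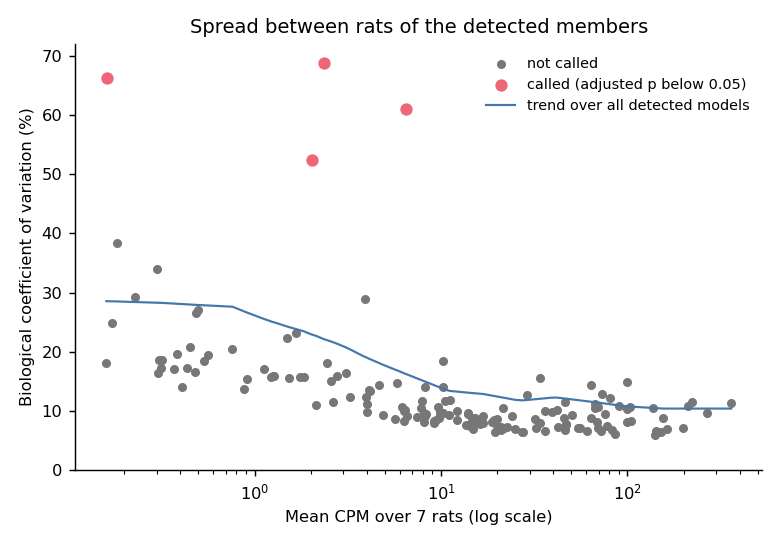
Biological coefficient of variation between rats (percent) of the 159 detected members against mean CPM (log axis), with the trend over all detected models as a line. The 4 called members lie between 52.5% and 68.8%, above the remaining 155.

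ENSRNOG00000000747 (minus strand, 664186 to 665358, 2 exons, 945 exon bases) had 2.22 CPM in the lowest rat, 5.71 at the median and 18.8 in the highest. Rat 5 was the highest with 1323 counts, and the other 6 rats had 143 to 495. Its BCV was 61.1% where the trend gave 16.2% (edgeR goodness of fit, adjusted p = 4.40e-21). Without rat 5 it was still called (adjusted p = 0.00590), and it was called under every edgeR alternative but the F test (adjusted p = 0.609). It is the only detected member between 0.5 and 1.0 Mb.

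ENSRNOG00000000843 (minus strand, 3817976 to 3820673, 3 exons) and ENSRNOG00000000781 (minus strand, 1697530 to 1703019, 4 exons) were high in rat 1 alone. The former had 8.15 CPM in rat 1 and 1.00 to 1.77 CPM in the other rats (edgeR goodness of fit, adjusted p = 4.88e-13), and the latter 5.48 CPM against 1.26 to 1.90 CPM (adjusted p = 1.82e-05). Without rat 1 neither was called (edgeR adjusted p = 1.000 for both), and the count of called members fell to 2 of 159, with 4.04% called among all models detected in those 6 rats. ENSRNOG00000000781 shares exon bases with ENSRNOG00000000780, a plus-strand model that was counted separately.

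ENSRNOG00000000487 (minus strand, 5624685 to 5655238, 12 exons) was low everywhere, with 0 counts in rat 6, a median of 11 and 23 counts in rat 3 (edgeR goodness of fit, adjusted p = 0.0155). It was not called without rat 6 (edgeR adjusted p = 1.000), with a minimum of 3 counts (0.0513) or with no filter (0.148). Over the 7 rats none of the 3 other called members went with ENSRNOG00000000747. The largest r was 0.59, with ENSRNOG00000000487 (exact permutation p = 0.164, adjusted 0.286 over 3 relations), and rho with it was 0.61.

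A member outside the tested set differed most of all between rats. ENSRNOG00000030676 (minus strand, 3308105 to 3341130, 9 exons, 1422 exon bases) had 991 counts in rat 1, 2 in rat 2, 1 in rat 6 and 0 in the others, all whole, and was therefore not detected by the rule. With no filter edgeR's test called it (adjusted p = 1.08e-103). It holds an exon of ENSRNOG00000028841 on the opposite strand, which had 80 to 179 counts with 109.67 in rat 1. ENSRNOG00000027157 (3808707 to 3810443), 7.53 kb from ENSRNOG00000000843 on the same strand, had 6.88 CPM in rat 1 and 3.04 to 3.89 CPM in the others, and was not called (edgeR adjusted p = 0.256; 0.0465 without rat 6). Both were singled out after their values were seen.

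**Figure D5:**
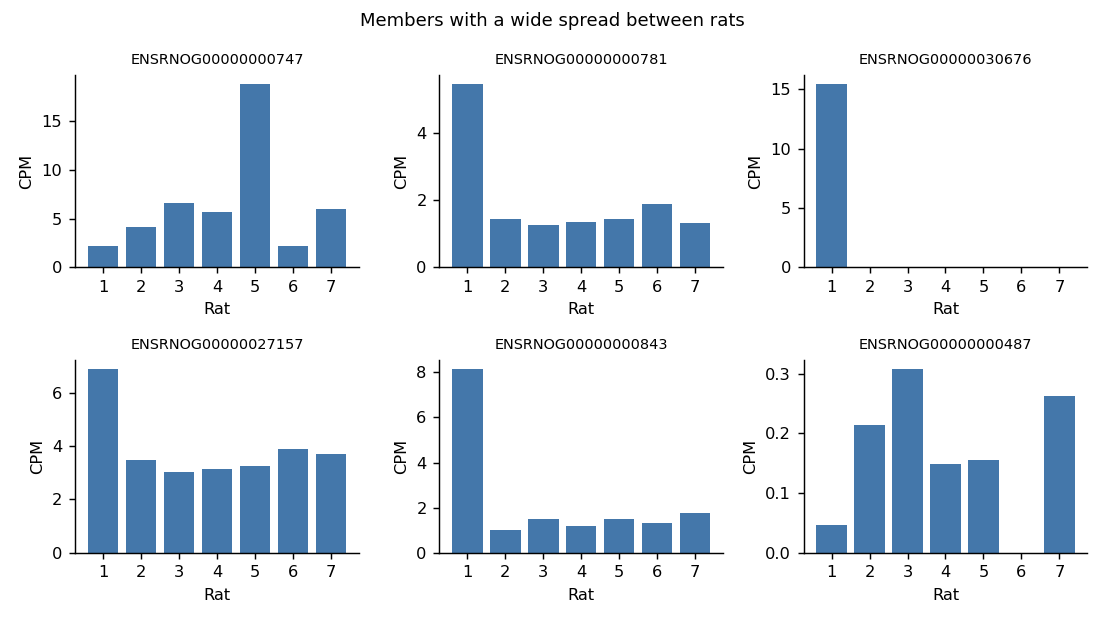
CPM in each of 7 rats for 6 members with a wide spread, each panel on its own linear axis from 0. ENSRNOG00000000747 is highest in rat 5, ENSRNOG00000000781, ENSRNOG00000030676, ENSRNOG00000027157 and ENSRNOG00000000843 are highest in rat 1, and ENSRNOG00000000487 has no count in rat 6.

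Rat 1 stood apart over the whole annotation as well, by the number of models far above every other rat. In that library 92 models had at least 100 counts and at least 4 times the TMM-scaled level of every other rat, against 0 to 11 models in each of the other libraries. ENSRNOG00000030676 and ENSRNOG00000000843 were the members among the 92, of which 14 lay on chromosome 10, 13 on chromosome 1, 12 on chromosome 2 and 11 on chromosome 7. Rat 6 lay about as far out by another measure. There 344 of all detected models were over 2-fold from the median, against 349 in rat 1 and 78 to 171 in each other rat. Of the 159 detected members 53 were lowest in rat 1, and 13 to 24 in each of the other rats. Rat 6 was the highest for 44 members, and each other rat for 10 to 29. Counts of lowest and highest rats over all detected models are not given here, so whether these are particular to the members was not tested. The median member differed in rat 1 from the median of the other rats by -0.07 on the log2 scale. What the 92 models share was not tested. Without rat 1 the median BCV was lower, at 8.57% over members and 8.67% over all models.

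The members' share of counts went with how much of a library the 10 most abundant models took. Pearson's r was -0.94 and Spearman's rho -0.93 (exact permutation p = 0.000794 and 0.00675, adjusted 0.00238 and 0.0202 over 3 relations, n = 7). Without rats 1 and 7, r was -0.84 over 5 rats (exact permutation p = 0.0833). Both are shares of one total and so are not independent, and the part of this in r was not tested. With the 10 models taken out of the total the members' share was 1.00% ± 0.0314 (SD, n = 7) and r was -0.57 (exact permutation p = 0.170). Its r with the library total was 0.19 and with the mitochondrial share 0.30 (exact permutation p = 0.680 and 0.516, n = 7), with rho of 0.36 and 0.11.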

How the data were processed

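Vomeronasal epithelium of 7 rats was measured, 1 polyA-selected, stranded library of single-end 100-base reads per rat, per the labels' protocols. The submitters' processing notes name STAR 2.7.1a for alignment and featureCounts 1.6.5, while the file headers name featureCounts 1.6.3. Each deposited value is an estimated count for 1 gene model, which the authors made by counting multi-mapped reads as fractions on the matching strand, with no minimum mapping quality, on Ensembl release 67 for RGSC3.4 with their own additions, per the file headers. No option to count a read at several overlapping models was set, per the file headers, and 0 members overlapped another model's exons on the same strand (15 did on the opposite strand). The values are scaled for neither depth nor length.

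CPM and RPKM were computed from each rat's total and the exon length. Counts were rounded for edgeR 4.0.16 (R 4.3.3), fitted over all 16670 detected models with an intercept only, TMM factors and the trended dispersion. The chi-square upper tail of each model's deviance (6 degrees of freedom) was adjusted by Benjamini-Hochberg at 0.05. The F test compared quasi-likelihood dispersions with the fitted prior. DESeq2 1.42.0 gave size factors and dispersion outliers. P-values of correlations enumerate all 5040 orders of the rats, two-sided. On simulated counts for 16670 models, 62 of 197 models with 4 times the dispersion and 8 of 16363 at the trend were called, so that most such models are missed. Levels and shares have no test, since there is 1 group. V1R models were those with Vom1r in their identifier, a definition that replaced the first 224 rows of the files after results had been seen.

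The text names the 12 highest members by RPKM, the highest of each window, called members, the 6 most abundant with shared counts in all rats, pairs of equal counts, both sides of the 6 Mb limit, the ends of the longest runs and the 3 longest members without counts. Members and lists were chosen with earlier results of these data known. The limits given for counts of 0 cover counting error only, and reads carried no molecular identifiers. Python 3.11.15 with numpy 2.4.6, scipy 1.17.1, pandas 2.3.3 and matplotlib 3.10.9 did the rest.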

Additional observations from a re-analysis of the deposited data

Results flagged for a closer look

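Dixon's test at its 95% critical value marked 7 of 32 values over the 7 rats, where chance marks about 1 in 20, and the members were partly singled out for their spread. ENSRNOG00000000747 stood at 18.8 CPM in rat 5 and 2.22 to 6.63 CPM in the other rats. The remaining 6 were all of rat 1. ENSRNOG00000030676 had 15.5 CPM there against 0 to 0.0267 CPM, ENSRNOG00000000843 8.15 CPM against 1.00 to 1.77 CPM, ENSRNOG00000000781 5.48 CPM against 1.26 to 1.90 CPM, and ENSRNOG00000027157 6.88 CPM against 3.04 to 3.89 CPM. Rat 1 was low for ENSRNOG00000000777, at 57.4 CPM against 68.5 to 74.1 CPM, and for ENSRNOG00000042905, at 41.0 CPM against 45.5 to 49.0 CPM. These CPM are from library totals, and both low values stood out less in TMM-scaled CPM. There ENSRNOG00000042905 had 43.4 CPM in rat 1, 44.5 in rat 7 and 50.5 in the highest rat. ENSRNOG00000000777 had 60.9 TMM-scaled CPM in rat 1, 68.4 at the median and 74.4 in the highest rat. What sets rat 1 apart was not tested.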

How the results depend on the processing

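All rats belonged to one group, and no paired analysis was possible because no groups share replicate numbers. Of 138 alternative values 104 were labelled as unchanged. For counts of members that label was wide. It took in 131 to 200 members detected, where the main value was 159, and 78 members with shared reads, where it was 100. With whole counts only, 81 members were detected, their share of counts was 0.167% and their median level 6.05 RPKM. The share was 1.00% without the 10 most abundant models in the total and 0.423% for starts under 5 Mb. The median level was 6.55 RPKM with a minimum of 3 counts and 4.50 RPKM with no filter, where fewer reads were asked of each member. Shared reads counted only where 7 of 7 rats had them left 22 members and 18.8% of the members' counts. Members with shared reads in at least 1 rat held 69.4% of the counts, and 67.2% without the most abundant member. Members called as variable numbered 110 against Poisson noise, 0 by the F test and 2 by DESeq2. The members' share against the mitochondrial share turned to r = -0.62 without the 10 most abundant models, and against the share of those models it lost the call there (r = -0.57). Neighbours against V1R models gave rho = 0.68, not past the unadjusted threshold, and r = 0.89 over the larger set of 224 rows, and 3 of the 7 neighbours alone summed to 212 CPM. With each rat left out in turn, members detected lay at 158 to 159, their share at 0.535% to 0.556%, the median level at 8.35 to 8.64 RPKM, members with shared reads at 93 to 99, their percentage of counts at 61.6 to 69.4, members called at 2 to 4 (2 without rat 1), the median BCV at 8.57% to 10.6%, and members that go with ENSRNOG00000000747 at 0 to 2 (2 without rat 5). Left out in the same way, r of the share lay at -0.21 to 0.86 with the library total (reversed to -0.21 without rat 1, 0.86 and past the threshold without rat 7), at -0.61 to 0.58 with the mitochondrial share (reversed to -0.61 without rat 7) and at -0.97 to -0.86 with the 10 most abundant models. The summed neighbours lay at 441 to 464 CPM and their r with V1R models at 0.64 to 0.91, past the unadjusted threshold only without rat 4. The cause of these changes was not tested. The alternatives on the block of 7 neighbours were added after seeing the data. Counts of a few reads per rat limit what can be said of the undetected members.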

Other observations

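Rat 5, which had the most counts of ENSRNOG00000000747, also had the most of a pair of single-exon models on the same strand beside it, seen after the values were known. ENSRNOG00000032716 (636663 to 637631), 26.6 kb away, had 29.9 counts in rat 5 and at most 12 in the other rats, and ENSRNOG00000028825 (609214 to 610185), 54.0 kb away, had 14.25 counts against at most 8. Both hold fractions of shared reads and are low. Nearer models did not follow: ENSRNOG00000000749, 16.4 kb away, had 9 counts in rat 5 and up to 16 elsewhere, and ENSRNOG00000000748, 2.27 kb away on the opposite strand, had 3727 counts in rat 5 and 3628 to 4737 over all rats. The difference between these models was not tested.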
